A study of Homo sapiens with 36 samples.

Results

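Cholesterol synthesis genes and the genes that control them were followed through 36 arrays of a human kidney cell line exposed to either of 2 compounds. The set holds 29 genes chosen by name from the pathway: 7 of the mevalonate pathway, 11 of the sterol branch, 5 that sense sterols or control the SREBP transcription factors, 2 of cholesterol transport and 4 of fatty acid synthesis. Of these, 27 had a probe set annotated to that gene alone, out of 19775 genes represented in all, and all 27 were above the level filter for both compounds. FDFT1 and CYP51A1 had no such probe set and were not analysed here.

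The cells were HK-2, which derive from the epithelium of a human proximal tubule and were immortalized, so all groups share 1 line and its genetic background. They were exposed for 24 h or 48 h to a compound labelled Aa, or for 24 h or 72 h to a compound labelled Ota. Each compound was given at a low and a high dose. Vehicle controls were run separately for every compound and time, which made 12 groups of 3 biological replicates. The labels spell out neither the compounds nor the concentrations, so the doses of Aa and Ota cannot be matched. All groups were grown in a DMEM-based medium whose listed supplements were EGF, hydrocortisone, insulin, transferrin, selenium and a glutamine source, with antibiotics. No serum, the usual source of lipoprotein cholesterol, stands in that list, and insulin, present in every group, is a known inducer of SREBF1 in liver.

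Cells make cholesterol from acetyl-CoA through mevalonate, squalene and lanosterol. The rate is set largely by SREBP2, the product of SREBF2, while SREBP1, the product of SREBF1, acts mainly on fatty acid synthesis. SCAP carries both factors out of the endoplasmic reticulum when membrane sterol is low, and INSIG1 and INSIG2 hold SCAP back when it is high. HMGCS1, SQLE and INSIG1 are targets of SREBP2, STARD4 moves cholesterol inside the cell and is also a target, and ABCA1, which exports cholesterol, is a target of the sterol-activated receptors LXR. SCD and FASN respond to both SREBP1 and LXR.

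Levels are on a log2 scale, 1 value per probe set and array, so a difference of 1 is a 2-fold change. Changes are log2 differences ± SE from limma, and genes were called at a Benjamini-Hochberg adjusted p under 0.05 over all genes tested. Across arrays, the number of genes above 4, the level taken as background, ran from 10055 to 10557 per array. The Ota high dose arrays stood apart: their median over tested genes was 7.51 ± 0.17 (SD, n = 3) at 24 h against 8.19 ± 0.05 in the controls, and 7.83 ± 0.05 at 72 h against 8.17 ± 0.03. Their results are therefore also given after quantile normalization and after shifting all arrays to a common median. Shares of all genes called are given for the values as deposited alone. Counts under the other scalings therefore have no matching share beside them, and those scalings also move the median of all genes. Of 10 proximal tubule markers with a probe set, SLC3A1, SLC4A4, DPP4 and PAX8 were above 4 on all 12 control arrays, whereas CUBN, LRP2, SLC34A1, AQP1, ANPEP and GGT1 were on none. Among markers of other cells, the leukocyte genes PTPRC, CD14, ITGAM, FCER1G and CD3E were at or under 4 on every control array. The fibroblast genes COL1A1, DCN and LUM, the distal nephron genes CLDN16 and SCNN1A and the endothelial gene ESAM were above it. From the same lists, the fibroblast genes COL1A2, COL3A1 and PDGFRB and the distal nephron genes SLC12A1, SLC12A3 and AQP2 were above 4 on no control array. Nor were the endothelial genes PECAM1, CDH5, VWF and KDR. Fewer cells and less RNA per cell cannot be told apart in such bulk samples.

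**Figure D1:**
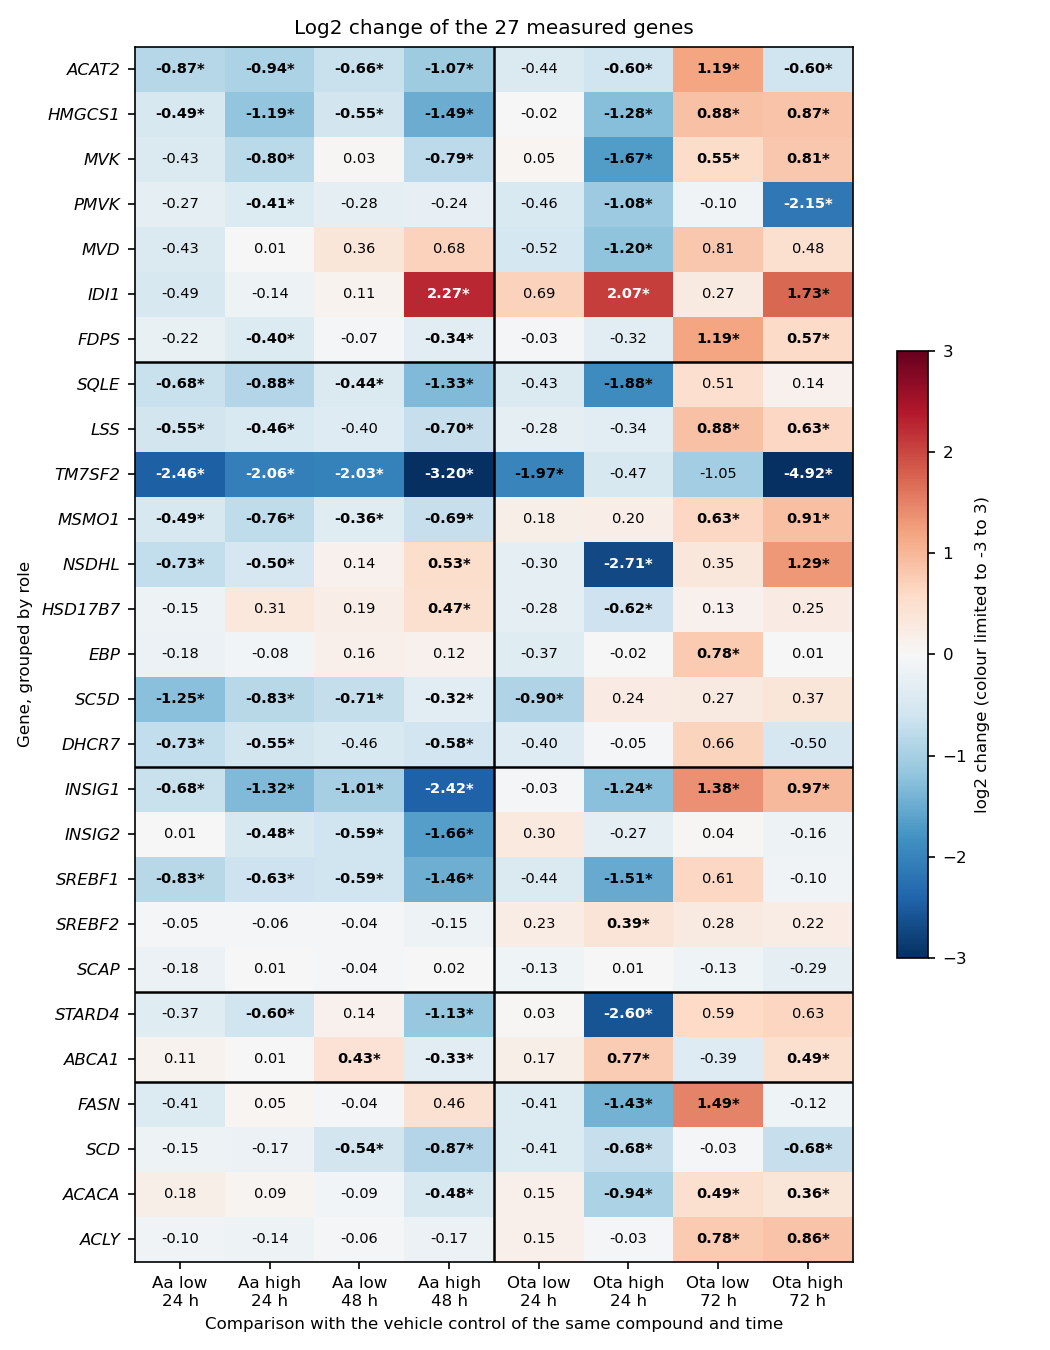
Log2 change of the 27 measured genes (rows, grouped by role) against vehicle controls in the 8 comparisons of a dose with its controls (columns), with n = 3 arrays a group. Bold values with a star passed an adjusted p under 0.05. In the Aa columns 10 to 17 genes each were called lower, where 13.5% to 35.1% of all genes were. With the Ota high dose, 14 were called lower and 3 higher at 24 h, against 42.4% and 21.6% of all genes. At 72 h 11 were higher and 4 lower, against 26.3% and 37%. The Ota low dose had 2 lower at 24 h and 11 higher at 72 h, against 10% and 9.79% of all genes.

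Promoter sequence was available from RefSeq (GRCh38.p14) for 25 of the 29 genes, in 34 windows of 250 bases before a transcription start. SREBPs bind sterol response elements, commonly beside sites for NF-Y, whose motif is CCAAT, or for Sp1, whose motif is GGGCGG. Both strands were searched, and overlaps with other motifs were allowed. CCAAT was present in 23 of the 34 windows (67.6%) and in 32% of all 35116 windows of this length, and GGGCGG in 31 (91.2%) and 42.6%. The sterol response element core TCACNCCAC was present in the SREBF2 window alone among the 34, and in 0.883% of all windows. The windows of genes that the results turn on are printed 5′ to 3′, ending at the base before the start, with CCAAT (read as ATTGG on the other strand) and TCACNCCAC in capitals. INSIG1 (chr7:155297628-155297877, plus strand) and HMGCS1 (chr5:43313413-43313662, minus strand, the first of 2 listed starts) fell with Aa and changed direction between the Ota times. NSDHL (chrX:152830813-152831062, plus strand) and STARD4 (chr5:111512536-111512785, minus strand) fell most with Ota at 24 h, TM7SF2 (chr11:65111622-65111871, plus strand) fell most with Aa, and SREBF2 (chr22:41832855-41833104, plus strand) held the sole match to TCACNCCAC.
INSIG1: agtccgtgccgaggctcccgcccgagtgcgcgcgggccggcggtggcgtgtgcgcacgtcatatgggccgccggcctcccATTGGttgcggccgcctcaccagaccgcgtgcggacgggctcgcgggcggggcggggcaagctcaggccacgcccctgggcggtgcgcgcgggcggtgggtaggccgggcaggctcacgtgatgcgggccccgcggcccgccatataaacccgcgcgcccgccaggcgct
HMGCS1: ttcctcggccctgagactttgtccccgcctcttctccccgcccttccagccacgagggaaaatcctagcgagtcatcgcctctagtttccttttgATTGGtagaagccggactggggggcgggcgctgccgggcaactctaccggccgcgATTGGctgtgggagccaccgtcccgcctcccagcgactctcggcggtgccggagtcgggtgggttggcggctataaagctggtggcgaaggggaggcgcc
NSDHL: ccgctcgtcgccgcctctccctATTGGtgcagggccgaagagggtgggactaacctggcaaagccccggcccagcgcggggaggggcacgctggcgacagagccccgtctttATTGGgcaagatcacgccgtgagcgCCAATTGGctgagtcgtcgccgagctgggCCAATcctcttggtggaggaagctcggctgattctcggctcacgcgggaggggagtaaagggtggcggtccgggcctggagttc
STARD4: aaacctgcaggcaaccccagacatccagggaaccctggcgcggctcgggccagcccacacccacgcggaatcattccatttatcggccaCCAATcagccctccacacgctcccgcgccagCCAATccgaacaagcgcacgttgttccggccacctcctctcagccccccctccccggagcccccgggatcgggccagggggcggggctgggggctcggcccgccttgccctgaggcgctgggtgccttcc
TM7SF2: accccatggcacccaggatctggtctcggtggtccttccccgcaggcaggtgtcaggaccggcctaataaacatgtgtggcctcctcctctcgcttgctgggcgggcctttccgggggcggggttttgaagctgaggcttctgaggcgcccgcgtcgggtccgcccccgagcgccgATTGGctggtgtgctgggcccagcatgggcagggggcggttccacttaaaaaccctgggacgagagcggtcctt
SREBF2: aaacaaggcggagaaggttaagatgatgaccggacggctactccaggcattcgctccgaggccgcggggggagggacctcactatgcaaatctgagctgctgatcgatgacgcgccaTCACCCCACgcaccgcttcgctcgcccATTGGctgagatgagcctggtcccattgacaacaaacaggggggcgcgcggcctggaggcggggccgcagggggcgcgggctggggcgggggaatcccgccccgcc
The NSDHL window held 5 matches to CCAAT, HMGCS1 and STARD4 held 2 each, and the others 1 each. A match describes these letters and is not evidence of binding. Which of the listed starts HK-2 cells use was not tested.

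Aa lowered cholesterol synthesis genes by 24 h. With the high dose, 16 of 27 genes were called lower and 0 higher, where 24% of all 10972 genes tested were called lower and 27.4% higher. The 27 genes had a median change of -0.46, against 0.03 over all genes. Of the falls with the high dose, 5 came from the 7 mevalonate genes, 7 from the 9 measured sterol genes, 3 from the 5 control genes, 1 from the 2 transport genes and 0 from the 4 fatty acid genes. With the low dose, 11 were lower and 0 higher, against 13.5% and 11.6% of all genes, with a median of -0.43 against -0.02. Both doses were compared with the same 3 control arrays.

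TM7SF2, a sterol C14-reductase of the sterol branch, fell most. Its arrays read 8.29, 8.06 and 8.17 in the controls, 5.78, 5.93 and 5.43 with the low dose and 6.22, 6.12 and 5.99 with the high dose. It fell by 2.46 ± 0.3 (adjusted p = 4.3e-05) with the low dose and by 2.06 ± 0.3 with the high dose (adjusted p = 4.3e-05), so neither dose overlapped the controls. INSIG1, which retains SCAP in the endoplasmic reticulum, read 11.91, 11.74 and 11.64 in the controls, 11.15, 11.42 and 10.68 with the low dose and 10.39, 10.63 and 10.29 with the high dose. It fell by 1.32 ± 0.18 (adjusted p = 2.1e-05) with the high dose, and the 3 groups did not overlap. HMGCS1, which makes HMG-CoA, read 10.53, 10.54 and 10.63 in the controls, 10.34, 10.19 and 9.7 with the low dose and 9.6, 9.37 and 9.17 with the high dose. It fell by 1.19 ± 0.17 (adjusted p = 3.0e-05) with the high dose. Here too the order was control, low dose, high dose with no overlap between neighbouring groups. Direct tests of high against low dose called both lower, HMGCS1 by 0.7 (adjusted p = 0.00546) and INSIG1 by 0.65 (adjusted p = 0.0137).

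SQLE, the squalene epoxidase, fell with little spread between replicates. Its arrays read 12.1, 12.14 and 12.2 in the controls, 11.42, 11.56 and 11.42 with the low dose and 11.29, 11.29 and 11.22 with the high dose. It fell by 0.68 ± 0.08 (adjusted p = 2.8e-05) with the low dose and by 0.88 ± 0.08 (adjusted p = 4.6e-07) with the high dose, and the 3 groups did not overlap. SC5D, the lathosterol desaturase, fell further with the low dose (-1.25 ± 0.13) than with the high dose (-0.83 ± 0.13), a difference of 0.42 that was called (adjusted p = 0.022). ACAT2, the cytosolic acetoacetyl-CoA thiolase, fell by 0.87 and 0.94 with the low and high dose, and MSMO1, the sterol C4 methyl oxidase, by 0.49 and 0.76. In the same comparisons the high dose lowered MVK and PMVK, the kinases of mevalonate and phosphomevalonate, by 0.8 and 0.41. It also lowered FDPS, which makes farnesyl diphosphate, by 0.4, and STARD4 by 0.6.

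Of the genes of the factors themselves, SREBF1 fell and SREBF2 was not called on the sets used. This contrast depends on the probe set. With the mean of all probe sets of a gene, SREBF1 and SREBF2 changed by -0.27 and -0.44 with the high dose. With the low dose these means changed by -0.41 and -0.29. SREBF1 read 8.55, 8.06 and 8.45 in the controls, 7.78, 7.38 and 7.42 with the low dose and 7.94, 7.57 and 7.67 with the high dose. It fell by 0.83 ± 0.2 (adjusted p = 0.00718) and by 0.63 ± 0.2 (adjusted p = 0.0163). SREBF2 read 8.83, 8.4 and 8.28 in the controls, 8.72, 8.2 and 8.44 with the low dose and 8.81, 8.12 and 8.41 with the high dose, and the 3 groups lay over each other. Its change with the high dose was -0.06 ± 0.24, with a 95% interval from -0.56 to 0.45. INSIG2 read 8.63, 8.91 and 8.63 in the controls, 8.56, 8.99 and 8.65 with the low dose and 8.16, 8.54 and 8.03 with the high dose. It fell by 0.48 ± 0.19 (adjusted p = 0.0473) with the high dose, and its low dose arrays overlapped the controls. The difference between its doses was not called (adjusted p = 0.0721) in the fit that left the replicate number out. SCD, which makes monounsaturated fatty acids, read 14.11, 14.12 and 14.02 in the controls, 13.91, 14.05 and 13.85 with the low dose and 13.98, 13.93 and 13.82 with the high dose, changes of -0.15 ± 0.1 and -0.17 ± 0.1 that were not called on this probe set. ABCA1 read 9.96, 9.93 and 9.93 in the controls, 10.02, 9.95 and 10.17 with the low dose and 9.91, 9.96 and 9.96 with the high dose, and its groups overlapped.

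Same-numbered Aa cultures deviated together, so a fit with the replicate number as a block was also made. With that block the low dose also lowered MVK (-0.43, adjusted p = 0.026), MVD (-0.43, adjusted p = 0.0195), STARD4 (-0.37, adjusted p = 0.0429) and FASN (-0.41, adjusted p = 0.00693), and the high dose raised HSD17B7 (0.31, adjusted p = 0.027). With the block, 9 genes differed between the doses where 4 did without it. It added INSIG2 (-0.49, adjusted p = 0.00567), MVK (-0.37, adjusted p = 0.0495) and SQLE (-0.21, adjusted p = 0.025), lower with the high dose. MVD (0.44, adjusted p = 0.0159) and FASN (0.46, adjusted p = 0.00327) were added as higher. Without the block, high against low dose gave 2 higher and 2 lower as deposited, 1 higher and 4 lower after quantile normalization, and 0 higher and 5 lower with the arrays shifted to a common median. Without 1 array, calls were lost with the high dose for MVK (3 of 6 arrays, adjusted p up to 0.137 without high dose replicate 2), FDPS (1 of 6 arrays, adjusted p up to 0.0599 without control replicate 2), LSS (2 of 6 arrays, adjusted p up to 0.138 without high dose replicate 2), NSDHL (1 of 6 arrays, adjusted p up to 0.0522 without high dose replicate 1), DHCR7 (4 of 6 arrays, adjusted p up to 0.185 without high dose replicate 2), INSIG2 (5 of 6 arrays, adjusted p up to 0.165 without high dose replicate 3), SREBF1 (3 of 6 arrays, adjusted p up to 0.0689 without control replicate 1) and STARD4 (2 of 6 arrays, adjusted p up to 0.077 without high dose replicate 3), and with the low dose for HMGCS1 (4 of 6 arrays, adjusted p up to 0.214 without low dose replicate 3), LSS (3 of 6 arrays, adjusted p up to 0.0814 without control replicate 1), DHCR7 (3 of 6 arrays, adjusted p up to 0.0752 without control replicate 3) and INSIG1 (1 of 6 arrays, adjusted p up to 0.0635 without low dose replicate 3). Marker levels also moved with the high dose: 2 of 4 tested proximal tubule markers, 2 of 3 fibroblast and 1 of 2 distal nephron markers were called lower (medians -0.74, -0.56 and -1.25). The summed levels ran from 12.31 to 12.61, 10.99 to 11.62 and 9.29 to 9.35, against 12.6 to 13.05, 11.63 to 12.05 and 9.74 to 10.42 in the controls. FCER1G was called higher (adjusted p = 0.00645) while at or under 4 on all of these arrays. The part of these in the results was not tested.

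Against the controls of the same time, the high dose of Aa lowered INSIG1 and INSIG2 further at 48 h than at 24 h, and 3 genes were called higher. It lowered 17 genes and raised 3, where 35.1% of all genes were called lower and 30.9% higher, with a median of -0.48 against -0.04 over all genes. The low dose lowered 10 and raised 1, against 19.1% and 18.8% of all genes, with a median of -0.09 against 0.01. Over both times, 14 of 27 genes were lower with the high dose at 24 h and at 48 h, as were 20.2% of all genes tested. They were ACAT2, HMGCS1, MVK, FDPS, SQLE, LSS, TM7SF2, MSMO1, SC5D, DHCR7, INSIG1, INSIG2, SREBF1 and STARD4. The 48 h calls of FDPS and SC5D did not hold under every scaling. LSS and SC5D each had another probe set called higher at both times. The comparisons share no arrays, but they share 1 estimate of the spread. Same-numbered arrays also deviated together across the times (correlations of deviations 0.559 to 0.578 in the controls and 0.267 to 0.444 with the high dose).

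INSIG1 read 12.56, 12.43 and 12.42 in the 48 h controls, 11.52, 11.71 and 11.17 with the low dose and 10.21, 9.86 and 10.11 with the high dose. It fell by 1.01 ± 0.18 (adjusted p = 5.0e-04) with the low dose and by 2.42 ± 0.18 (adjusted p = 3.4e-08) with the high dose, and no groups overlapped. INSIG2 read 8.98, 9.16 and 9.08 in the controls, 8.54, 8.76 and 8.14 with the low dose and 7.58, 7.62 and 7.04 with the high dose. It fell by 1.66 ± 0.19 (adjusted p = 2.4e-06) with the high dose. High against low dose was called lower for INSIG1 (-1.41 ± 0.18, adjusted p = 2.2e-05) and INSIG2 (-1.07 ± 0.19, adjusted p = 3.8e-04). TM7SF2 read 8.51, 8.0 and 8.1 in the controls, 6.24, 6.49 and 5.81 with the low dose and 5.95, 4.53 and 4.53 with the high dose. It fell by 3.2 ± 0.3 (adjusted p = 3.0e-07) with the high dose, a 9.2-fold drop. Its low and high dose arrays overlapped, since high dose replicate 1 stayed near the low dose.

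HMGCS1 read 11.22, 11.0 and 10.89 in the controls, 10.62, 10.53 and 10.3 with the low dose and 9.75, 9.34 and 9.57 with the high dose. It fell by 1.49 ± 0.17 (adjusted p = 1.7e-06) with the high dose. SQLE read 12.4, 12.41 and 12.45 in the controls, 12.02, 11.97 and 11.94 with the low dose and 11.07, 11.05 and 11.14 with the high dose. It fell by 1.33 ± 0.08 (adjusted p = 4.7e-09). Both genes stepped down from control to low to high dose without overlap, and high against low dose was called for HMGCS1 (-0.93, adjusted p = 3.6e-04) and SQLE (-0.89, adjusted p = 1.3e-06). In all, 16 genes differed between the doses at 48 h, 13 lower with the high dose and 3 higher, against 25.6% and 20.9% of all genes; at 24 h 4 differed, 2 each way, against 9.95% and 17.1%. SREBF1 read 8.53, 8.02 and 8.23 in the controls, 7.76, 7.42 and 7.83 with the low dose and 7.14, 6.41 and 6.84 with the high dose. It fell by 1.46 ± 0.2 (adjusted p = 1.3e-05). SREBF2, at 9.03, 8.46 and 8.3 in the controls, 8.92, 8.39 and 8.35 with the low dose and 8.71, 8.3 and 8.32 with the high dose, again overlapped in all groups. STARD4 fell by 1.13 with the high dose and changed by 0.14 ± 0.19 with the low dose, which was not called.

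SCD, ACACA and ABCA1 were called lower with the high dose at 48 h on the sets used, and not at 24 h, although 3 other SCD sets were lower at 24 h already. SCD read 14.48, 14.62 and 14.35 in the controls, 13.94, 14.02 and 13.87 with the low dose and 13.69, 13.48 and 13.66 with the high dose. It fell by 0.54 ± 0.1 (adjusted p = 6.4e-04) and by 0.87 ± 0.1 (adjusted p = 2.0e-06), with no overlap. ACACA, the acetyl-CoA carboxylase, fell by 0.48 with the high dose. ABCA1 read 9.68, 9.83 and 9.58 in the controls, 10.33, 9.88 and 10.17 with the low dose and 9.46, 9.24 and 9.4 with the high dose. It rose by 0.43 ± 0.12 (adjusted p = 0.00914) with the low dose and fell by 0.33 ± 0.12 (adjusted p = 0.0189) with the high dose, so the doses lay on opposite sides of the controls, and they differed from each other by 0.76 (adjusted p = 9.5e-05). ACLY, which makes cytosolic acetyl-CoA, changed by -0.17 ± 0.09 and EBP, a sterol isomerase, by 0.12 ± 0.13, neither called.

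The genes called higher with the high dose were NSDHL, HSD17B7 and IDI1. NSDHL, the sterol C4 decarboxylase, read 9.14, 9.07 and 9.65 in the controls, 9.37, 9.33 and 9.57 with the low dose and 9.72, 9.79 and 9.93 with the high dose. It rose by 0.53 ± 0.15 (adjusted p = 0.00607); at 24 h it had been lower with both doses, -0.73 ± 0.15 and -0.5 ± 0.15. HSD17B7, the 3-ketosteroid reductase that follows it, read 10.25, 10.3 and 10.29 in the controls, 10.53, 10.61 and 10.27 with the low dose and 10.54, 10.84 and 10.89 with the high dose. It rose by 0.47 ± 0.14 (adjusted p = 0.0096). Its only probe set can bind related sequences, and the gene has a near-identical pseudogene, so its signal may hold both. IDI1, the isopentenyl diphosphate isomerase, read 5.21, 4.6 and 4.64 in the controls, 4.74, 5.45 and 4.58 with the low dose and 6.8, 7.27 and 7.18 with the high dose, a rise of 2.27 ± 0.25 on a dim probe set, while its bright probe sets fell as described with the probe sets of these genes.

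The change with time was tested as an interaction. From 24 h to 48 h the high dose effect moved down for INSIG2 by 1.18, INSIG1 by 1.09, SCD by 0.7, ACACA by 0.57 and SQLE by 0.45. It moved up for IDI1, on its dim probe set, by 2.41 and for NSDHL by 1.03 (adjusted p of the 7 from 5.8e-04 to 0.0142). These 5 lower and 2 higher of 27 compare with 13.6% and 7.14% of all genes, and with 5 and 3 after quantile normalization and 3 and 3 with a common median. Between the times, INSIG1 means went from 11.76 to 12.47 in the controls and from 10.44 to 10.06 with the high dose. Those of INSIG2 went from 8.73 to 9.07 and from 8.24 to 7.41. SQLE went from 12.145 to 12.42 and from 11.264 to 11.088, and SCD from 14.09 to 14.48 and from 13.91 to 13.61. A higher control mean at 48 h thus adds to the downward shift of these genes, while ACACA controls went from 9.49 to 9.47. The replicate block added MVD (0.67, adjusted p = 0.0125), TM7SF2 (-1.14, adjusted p = 0.0225), SC5D (0.51, adjusted p = 0.014), SREBF1 (-0.83, adjusted p = 6.1e-04), STARD4 (-0.53, adjusted p = 0.0414) and FASN (0.41, adjusted p = 0.0404). None of these 7 calls was lost on leaving out any 1 of the 12 arrays. For the low dose no gene passed the interaction without the block, where 1.64% of all genes did, and 4 of 27 had an unadjusted p under 0.05 in limma. With the block MVD (0.79, adjusted p = 0.0205), NSDHL (0.86, adjusted p = 0.00204), SC5D (0.54, adjusted p = 0.0342) and INSIG2 (-0.6, adjusted p = 0.0456) passed, and 1 gene passed with limma's trended, robust prior. No gene was called between the 48 h and 24 h controls, where 1.29% of all genes were, although 7 had an unadjusted p under 0.05. The trended, robust prior called 4 and the block HMGCS1 (0.47, adjusted p = 0.0225), SQLE (0.28, adjusted p = 0.0151), MSMO1 (0.39, adjusted p = 0.0232), NSDHL (-0.39, adjusted p = 0.0132), INSIG1 (0.71, adjusted p = 0.00731) and SCD (0.4, adjusted p = 0.00703).

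With the block, 3 more genes passed in the high dose at 48 h, namely MVD (0.68, adjusted p = 3.6e-04), FASN (0.46, adjusted p = 0.00123) and ACLY (-0.17, adjusted p = 0.0497), and 4 more in the low dose, namely PMVK (-0.28, adjusted p = 0.0396), MVD (0.36, adjusted p = 0.0331), LSS (-0.4, adjusted p = 0.00678) and DHCR7 (-0.46, adjusted p = 2.5e-04). The high dose calls lost on leaving out 1 array were those of MVK (2 of 6 arrays, adjusted p up to 0.125 without high dose replicate 2), FDPS (2 of 6 arrays, adjusted p up to 0.0761 without control replicate 3), SC5D (3 of 6 arrays, adjusted p up to 0.181 without control replicate 3), DHCR7 (4 of 6 arrays, adjusted p up to 0.0954 without control replicate 3) and ABCA1 (2 of 6 arrays, adjusted p up to 0.0847 without control replicate 2), and the low dose calls of HMGCS1 (2 of 6 arrays, adjusted p up to 0.0737 without low dose replicate 3), MSMO1 (3 of 6 arrays, adjusted p up to 0.0719 without low dose replicate 3), INSIG2 (3 of 6 arrays, adjusted p up to 0.128 without low dose replicate 3), SREBF1 (4 of 6 arrays, adjusted p up to 0.129 without control replicate 1) and ABCA1 (1 of 6 arrays, adjusted p up to 0.0541 without low dose replicate 1). Between the doses, calls were lost in the same way at 24 h for HSD17B7 (3 of 6 arrays, adjusted p up to 0.114 without low dose replicate 3), SC5D (3 of 6 arrays, adjusted p up to 0.0812 without high dose replicate 3) and INSIG1 (2 of 6 arrays, adjusted p up to 0.0824 without low dose replicate 2), and at 48 h for ACAT2 (5 of 6 arrays, adjusted p up to 0.197 without low dose replicate 2), MVK (3 of 6 arrays, adjusted p up to 0.136 without high dose replicate 2), MSMO1 (2 of 6 arrays, adjusted p up to 0.114 without high dose replicate 2), NSDHL (5 of 6 arrays, adjusted p up to 0.137 without high dose replicate 3), SC5D (3 of 6 arrays, adjusted p up to 0.0989 without low dose replicate 1) and SCD (2 of 6 arrays, adjusted p up to 0.0624 without high dose replicate 2). With the high dose at 48 h, 3 of 4 proximal tubule markers were called lower (median -2.06), with a summed level of 12.27 to 12.68 against 13.03 to 13.54 in the controls. The summed level of the leukocyte markers ran from 5.27 to 6.07 against 4.68 to 4.78, where FCER1G was above 4 on all 3 high dose arrays and on no control array, at least 1.66-fold higher with the controls taken at 4 (adjusted p = 1.52e-05). The 3′ to 5′ difference of ACTB probe sets, a measure of RNA integrity, was 1.25 ± 0.3 with the high dose and 0.86 ± 0.22 in the controls (log2, SD, n = 3). Whether these bear on the results was not tested.

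**Figure D2:**
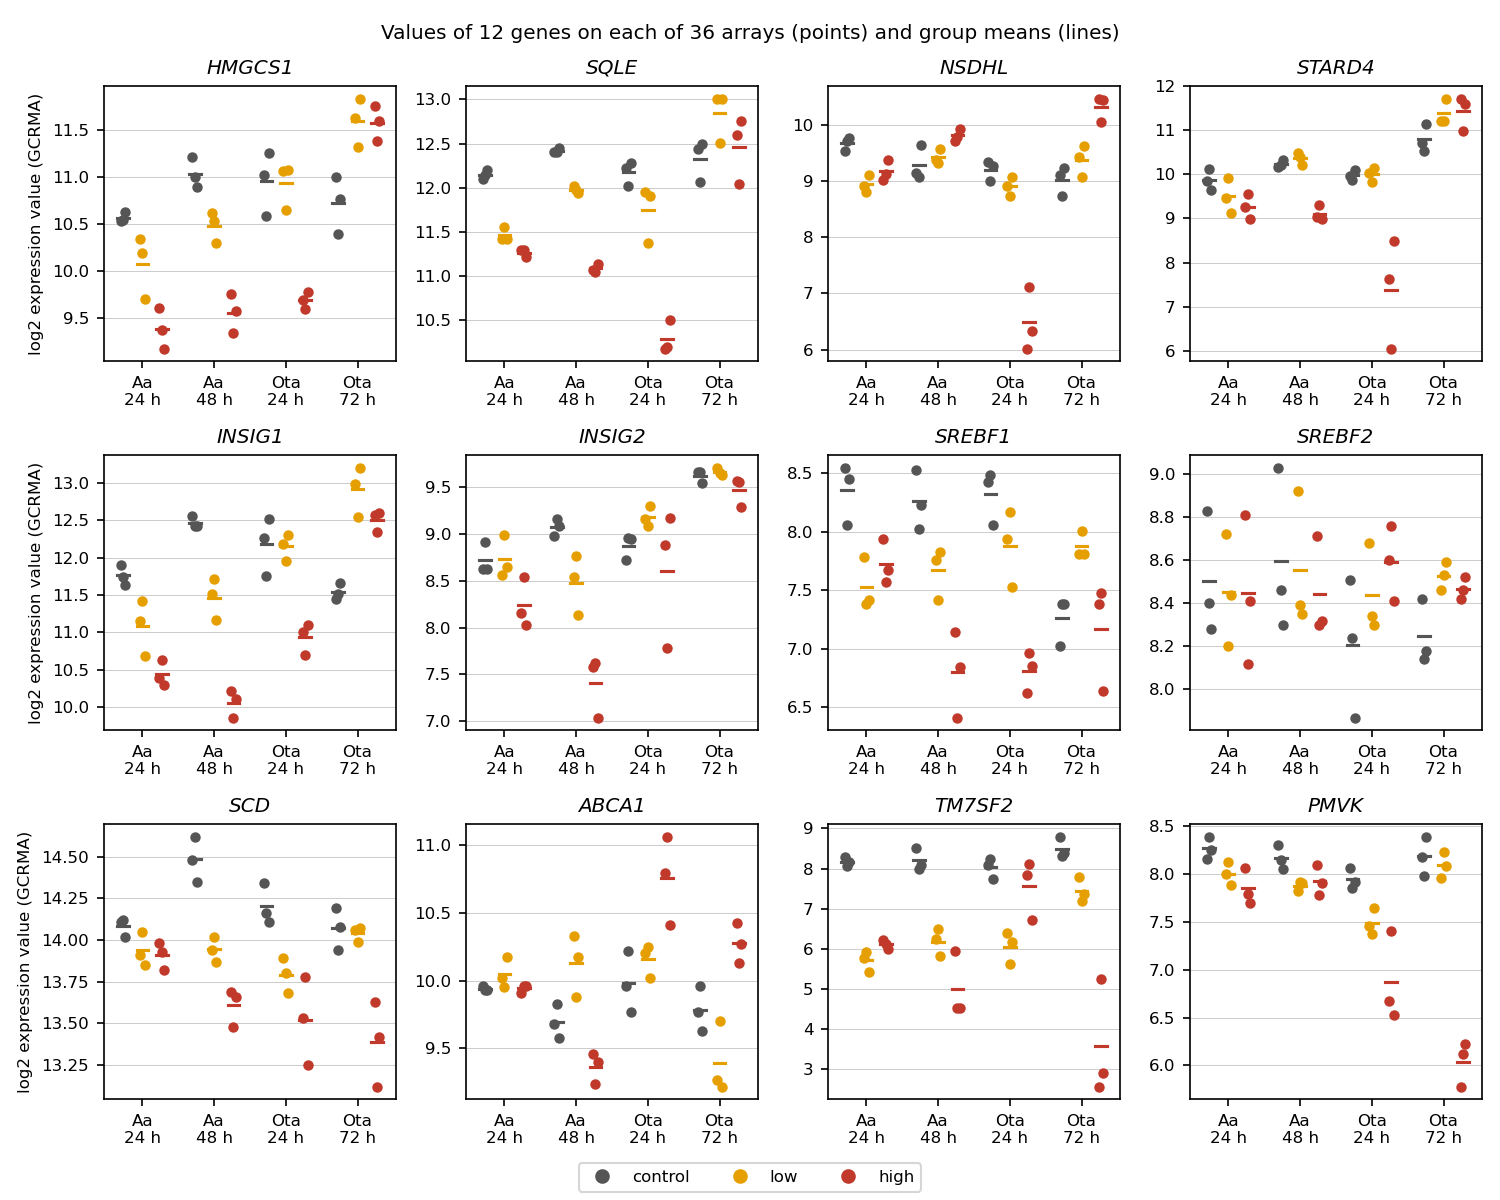
Log2 expression values of 12 genes on each of the 36 arrays (points), by compound and time (x axis), with controls in grey, low dose in orange and high dose in red. Lines are group means of 3 arrays, and each panel has its own y axis. With Aa, HMGCS1, SQLE and INSIG1 step down from control to low to high dose at 48 h, and with the Ota high dose HMGCS1 and INSIG1 lie below the controls at 24 h and above them at 72 h.

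The high dose of Ota lowered 14 of the 27 genes at 24 h and raised 3, where 42.4% of all 11029 genes were called lower and 21.6% higher. The median change was -0.6 against -0.26 over all genes. On the values as deposited, the deepest falls were in NSDHL, STARD4, SQLE and MVK, each at least 3.17-fold, and 5 of the 7 mevalonate genes fell. Quantile normalization, which moved the median of all genes to 0.14, left 4 higher and 10 lower, and the common median, which moved it to 0.41, left 9 higher and 8 lower. Under all 3 scalings, 8 genes were called lower (HMGCS1, MVK, SQLE, NSDHL, INSIG1, SREBF1, STARD4 and FASN) and 3 higher (IDI1 on its dim probe set, SREBF2 and ABCA1). After quantile normalization and with the common median, NSDHL changed by -1.91 and -2.04, STARD4 by -1.97 and -1.92, SQLE by -1.74 and -1.21 and MVK by -0.78 and -0.99. HMGCS1 changed by -1.06 and -0.60, INSIG1 by -1.17 and -0.57, SREBF1 by -0.71 and -0.84 and FASN by -0.97 and -0.75. The low dose lowered 2 genes and raised 0, against 10% and 4.66% of all genes, with a median of -0.28 against -0.05.

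NSDHL read 9.34, 9.01 and 9.26 in the controls, 8.91, 8.74 and 9.08 with the low dose and 6.02, 7.12 and 6.34 with the high dose. It fell by 2.71 ± 0.24 (adjusted p = 1.0e-07) with the high dose. Relative to the median of all genes this was -2.45. STARD4 read 9.96, 9.87 and 10.1 in the controls, 10.04, 9.82 and 10.15 with the low dose and 7.62, 6.05 and 8.48 with the high dose. It fell by 2.6 ± 0.41 (adjusted p = 5.2e-05) with the high dose. The high dose arrays of both genes were far below the rest but spread widely among themselves. SQLE read 12.22, 12.02 and 12.28 in the controls, 11.95, 11.37 and 11.91 with the low dose and 10.18, 10.2 and 10.5 with the high dose. It fell by 1.88 ± 0.21 (adjusted p = 1.4e-06). MVK fell by 1.67, MVD, the mevalonate diphosphate decarboxylase, by 1.2, and PMVK by 1.08. MVD lay near background in the high dose, with values of 3.93, 5.12 and 4.14.

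HMGCS1 read 11.02, 10.59 and 11.26 in the controls, 11.07, 10.65 and 11.08 with the low dose and 9.69, 9.59 and 9.77 with the high dose. It fell by 1.28 ± 0.2 (adjusted p = 4.4e-05). INSIG1 read 12.26, 11.76 and 12.52 in the controls, 12.19, 11.96 and 12.31 with the low dose and 11.0, 10.7 and 11.1 with the high dose. It fell by 1.24 ± 0.2 (adjusted p = 4.9e-05). For both, the low dose lay over the controls and the high dose well below. SREBF1 read 8.43, 8.49 and 8.06 in the controls, 7.94, 8.17 and 7.53 with the low dose and 6.62, 6.96 and 6.85 with the high dose. It fell by 1.51 ± 0.22 (adjusted p = 1.8e-05). Its fall came with falls of FASN, the fatty acid synthase, by 1.43, and of ACACA by 0.94. SCD read 14.34, 14.16 and 14.11 in the controls, 13.89, 13.8 and 13.68 with the low dose and 13.53, 13.78 and 13.25 with the high dose. It fell by 0.68 ± 0.15 (adjusted p = 9.5e-04). The calls of SCD, ACACA, PMVK and MVD were not made under all 3 scalings, nor were those of ACAT2 and HSD17B7, whose changes of -0.6 and -0.62 turned to 0.076 and 0.052 with the common median. INSIG2 read 8.72, 8.96 and 8.95 in the controls, 9.16, 9.09 and 9.3 with the low dose and 8.88, 7.78 and 9.17 with the high dose, a change of -0.27 ± 0.24 that was not called and in which high dose replicate 2 lay alone.

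ABCA1 went the other way. It read 9.96, 10.22 and 9.77 in the controls, 10.2, 10.25 and 10.02 with the low dose and 10.79, 11.06 and 10.41 with the high dose. It rose by 0.77 ± 0.18 (adjusted p = 0.00156) with no overlap. SREBF2 read 8.51, 8.24 and 7.87 in the controls, 8.68, 8.34 and 8.3 with the low dose and 8.6, 8.76 and 8.41 with the high dose. It rose by 0.39 ± 0.16 (adjusted p = 0.0449), although its groups overlapped. IDI1 read 4.66, 5.59 and 5.16 in the controls and 7.9, 6.92 and 6.82 with the high dose on its dim probe set. With the low dose, TM7SF2 fell by 1.97 ± 0.52 (adjusted p = 0.0182), from 8.1, 8.24 and 7.75 to 6.39, 5.62 and 6.16, and SC5D fell by 0.9 ± 0.23 (adjusted p = 0.0161). The SC5D call was made under all 3 scalings. That of TM7SF2 was not, although it changed by -1.83 both after quantile normalization and with the common median. Neither gene was called with the high dose, where TM7SF2 read 7.83, 8.11 and 6.73, and high against low dose was called for both (TM7SF2 1.5, adjusted p = 0.0222, and SC5D 1.14, adjusted p = 6.3e-04). Thus the lower dose gave the lower level of these 2 genes at 24 h.

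High against low dose at 24 h was called lower for 10 genes and higher for 4, where 38.7% of all genes were lower and 19.4% higher. Quantile normalization gave 7 lower and 6 higher, and the common median 8 lower and 11 higher. Leukocyte marker levels moved with the Ota high dose: their summed level ran from 4.70 to 4.71 in the controls and from 6.91 to 7.34 with the high dose, while PTPRC, CD14 and CD3E did not pass the level filter. FCER1G and ITGAM were above 4 on all 3 high dose arrays and on no control array. With the controls taken at 4, they were at least 5.55-fold and at least 1.95-fold higher (adjusted p = 5.71e-07 and 2.43e-08). Of the 4 proximal tubule markers, 3 were lower, with a summed level of 12.27 to 12.45 against 13.14 to 13.3. The low dose was called higher for FCER1G too (adjusted p = 0.0137), above 4 on 2 of its 3 arrays. Their part in the results was not tested. Without 1 array or another, the high dose lost the calls of ACAT2 (4 of 6 arrays, adjusted p up to 0.143 without high dose replicate 3), HSD17B7 (1 of 6 arrays, adjusted p up to 0.0523 without control replicate 3) and SREBF2 (4 of 6 arrays, adjusted p up to 0.246 without control replicate 3), and the low dose those of TM7SF2 (3 of 6 arrays, adjusted p up to 0.0883 without low dose replicate 2) and SC5D (2 of 6 arrays, adjusted p up to 0.1 without low dose replicate 2). Between the doses the calls of PMVK (3 of 6 arrays, adjusted p up to 0.0662 without high dose replicate 3) and TM7SF2 (3 of 6 arrays, adjusted p up to 0.0855 without high dose replicate 2) were lost so. Same-numbered control and dose arrays deviated together at 24 h (correlations of deviations 0.312 to 0.411 for the low and 0.109 to 0.23 for the high dose), and with the replicate number as a block the low dose also lowered SQLE (-0.43, adjusted p = 0.0306).

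By 72 h the Ota arrays had turned. The high dose raised 11 genes and lowered 4, where 26.3% of all genes were called higher and 37% lower, with a median of 0.36 against -0.12 over all genes. Quantile normalization gave 13 higher and 4 lower with the median of all genes at 0.12, and the common median 16 higher and 2 lower with it at 0.22. The low dose raised 11 and lowered 0, against 9.79% and 7.28% of all genes, with a median of 0.55 against 0.01. Of the mevalonate genes, 4 of 7 rose with each dose, and 3 of the 9 measured sterol genes did. The doses share their controls. HMGCS1, MVK, NSDHL, INSIG1 and ACACA, called lower with the high dose at 24 h, were called higher with it at 72 h, as were 4.62% of all genes tested. These comparisons share no arrays, but they share 1 estimate of the spread.

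INSIG1 read 11.45, 11.51 and 11.66 in the 72 h controls, 12.99, 12.55 and 13.21 with the low dose and 12.57, 12.35 and 12.6 with the high dose. It rose by 1.38 ± 0.2 (adjusted p = 2.4e-04) and by 0.97 ± 0.2 (adjusted p = 5.0e-04). HMGCS1 read 11.0, 10.39 and 10.77 in the controls, 11.63, 11.32 and 11.84 with the low dose and 11.76, 11.39 and 11.6 with the high dose. It rose by 0.88 ± 0.2 (adjusted p = 0.00698) and by 0.87 ± 0.2 (adjusted p = 0.00138). In both genes every treated array lay above every control array. NSDHL read 9.11, 8.74 and 9.23 in the controls, 9.43, 9.07 and 9.63 with the low dose and 10.47, 10.05 and 10.44 with the high dose. It rose by 1.29 ± 0.24 (adjusted p = 2.1e-04) with the high dose, while its low dose change of 0.35 ± 0.24 was not called. The same high dose raised MSMO1 by 0.91, ACLY by 0.86, MVK by 0.81, LSS, the lanosterol synthase, by 0.63, and FDPS by 0.57. For SQLE, arrays read 12.44, 12.06 and 12.49 in the controls, 13.01, 12.51 and 13.01 with the low dose and 12.6, 12.04 and 12.75 with the high dose, changes of 0.51 ± 0.21 and 0.14 ± 0.21 that were not called.

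The low dose raised genes that the high dose did not. FASN rose by 1.49 ± 0.3 with the low dose (adjusted p = 0.0028) from controls of 8.19, 8.07 and 7.72, and changed by -0.12 ± 0.3 with the high dose. ACAT2 read 10.31, 10.19 and 10.39 in the controls, 11.59, 11.16 and 11.71 with the low dose and 9.74, 9.29 and 10.04 with the high dose. It rose by 1.19 ± 0.23 (adjusted p = 0.00197) but fell by 0.6 ± 0.23 (adjusted p = 0.0285). Its doses lay on either side of the controls. EBP rose by 0.78 with the low dose and changed by 0.01 ± 0.2 with the high dose. High against low dose was called lower for 9 genes, among them ACAT2 (-1.8), FASN (-1.61), EBP (-0.77) and DHCR7, the 7-dehydrocholesterol reductase (-1.15). It was called higher for 3, NSDHL (0.94), ABCA1 (0.88) and, on its dim probe set, IDI1 (1.46). Of all genes, 36.7% were lower and 21.7% higher, and the split of the set was 9 lower and 4 higher after quantile normalization and 5 lower and 7 higher with the common median. Between the doses, leaving out 1 array ended the calls of FDPS (3 of 6 arrays, adjusted p up to 0.111 without high dose replicate 2) and SREBF1 (1 of 6 arrays, adjusted p up to 0.0667 without high dose replicate 3).

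TM7SF2 and PMVK were lower with the high dose. TM7SF2 read 8.8, 8.32 and 8.38 in the controls, 7.79, 7.19 and 7.37 with the low dose and 2.57, 5.25 and 2.91 with the high dose. It fell by 4.92 ± 0.52 (adjusted p = 7.9e-07) with the high dose. Because high dose replicates 1 and 3 lay under 4, the change with such values set to 4 was -4.08. PMVK read 8.18, 7.98 and 8.39 in the controls, 7.96, 8.23 and 8.08 with the low dose and 5.78, 6.12 and 6.22 with the high dose. It fell by 2.15 ± 0.2 (adjusted p = 1.7e-07). At 24 h PMVK had been lower by 1.08 with the same dose. SCD read 14.19, 13.94 and 14.08 in the controls, 14.06, 13.99 and 14.07 with the low dose and 13.63, 13.12 and 13.42 with the high dose. It fell by 0.68 ± 0.15 (adjusted p = 9.7e-04) with the high dose, a call not made under all 3 scalings, like that of ACAT2. ABCA1 read 9.77, 9.96 and 9.63 in the controls, 9.27, 9.7 and 9.22 with the low dose and 10.42, 10.13 and 10.27 with the high dose. It rose by 0.49 ± 0.18 (adjusted p = 0.0279) with the high dose, while the low dose change of -0.39 ± 0.18 was not called.

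The control genes other than INSIG1 were not called at 72 h. SREBF1 read 7.02, 7.38 and 7.38 in the controls, 7.81, 8.01 and 7.81 with the low dose and 7.38, 7.48 and 6.64 with the high dose, changes of 0.61 ± 0.22 and -0.1 ± 0.22. SREBF2 read 8.42, 8.14 and 8.18 in the controls, 8.46, 8.53 and 8.59 with the low dose and 8.42, 8.46 and 8.52 with the high dose, changes of 0.28 ± 0.16 and 0.22 ± 0.16. INSIG2 read 9.66, 9.66 and 9.54 in the controls, 9.71, 9.65 and 9.63 with the low dose and 9.57, 9.55 and 9.29 with the high dose, and its groups overlapped the controls. SCAP, the sterol sensor that escorts SREBPs, was not called in any of the 8 comparisons of a dose with its controls. Its changes ran from -0.29 with the Ota high dose at 72 h to 0.02 with the Aa high dose at 48 h, and the 95% interval of the former ran from -0.59 to 0.01.

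Levels in the Ota controls themselves differed between 24 h and 72 h. In the 72 h controls, 9 genes were called lower and 1 higher, where 15.8% of all genes were lower and 14% higher. FASN was lower by 1.7, SREBF1 by 1.06, EBP by 0.88, FDPS by 0.81, ACAT2 by 0.74, ACLY by 0.67, LSS by 0.66, INSIG1 by 0.64 and ACACA by 0.49, and INSIG2 was higher by 0.75. The 72 h rises of any of these 9 genes are therefore against a lower control. Against the 24 h controls instead, a comparison added after the data were seen, the high dose at 72 h gave 8 genes higher and 7 lower and the low dose 7 higher and 1 lower. HMGCS1, MVK, IDI1, MSMO1 and NSDHL stayed higher with the high dose on that base, by 0.63, 0.82, 1.69, 1.15 and 1.12, while the other 6 of its 11 rises (ABCA1, ACACA, ACLY, FDPS, INSIG1 and LSS) were not called. INSIG1 was at 0.33 there (adjusted p = 0.167). SREBF1 with the high dose was lower on that base, by 1.16 (adjusted p = 2.6e-04). Of the 11 low dose rises, 4 stayed called (HMGCS1, INSIG1, MSMO1 and MVK) and 7 did not. FASN was at -1.82 with the high and -0.21 with the low dose. INSIG1 with the low dose was at 0.73. Calls between the controls were lost without 1 array for ACAT2 (4 of 6 arrays, adjusted p up to 0.0764 without Ota control 24 h replicate 1), INSIG1 (4 of 6 arrays, adjusted p up to 0.111 without Ota control 24 h replicate 3), INSIG2 (6 of 6 arrays, adjusted p up to 0.106 without Ota control 24 h replicate 1) and ACACA (1 of 6 arrays, adjusted p up to 0.0626 without Ota control 24 h replicate 1).

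At 72 h the loss of 1 array ended the high dose calls of ACAT2 (4 of 6 arrays, adjusted p up to 0.146 without high dose replicate 2), FDPS (3 of 6 arrays, adjusted p up to 0.145 without high dose replicate 3), ACACA (5 of 6 arrays, adjusted p up to 0.0955 without high dose replicate 1) and ABCA1 (4 of 6 arrays, adjusted p up to 0.103 without control replicate 3), and the low dose calls of MVK (5 of 6 arrays, adjusted p up to 0.114 without low dose replicate 1), MSMO1 (5 of 6 arrays, adjusted p up to 0.123 without low dose replicate 3), EBP (3 of 6 arrays, adjusted p up to 0.0639 without low dose replicate 1) and ACACA (4 of 6 arrays, adjusted p up to 0.0952 without low dose replicate 1). Without low dose replicate 1 or 3, or without control replicate 3, 7 genes were called with the low dose. Marker levels moved with the high dose here too: the summed proximal tubule level ran from 13.47 to 13.61 in the controls and from 11.39 to 12.2 with the high dose, and that of the leukocyte markers from 4.62 to 4.81 and from 6.71 to 7.35, where FCER1G was at least 6.83-fold higher with the controls taken at 4 (adjusted p = 3.6e-07) and ITGAM was not called. With the low dose, 2 of 3 fibroblast markers were higher (median 1.27), their summed level running from 10.66 to 11.23 against 9.55 to 9.9; with the high dose 1 of 3 was, at 10.29 to 10.95. Between the controls, 2 of 3 were lower at 72 h than at 24 h (median -1.8, with 11.31 to 11.64 at 24 h). The 3′ to 5′ difference of ACTB was 1.88 ± 0.37 with the high dose and 1.28 ± 0.15 in the controls (log2, SD, n = 3). The part of these in the results was not tested.

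**Figure D3:**
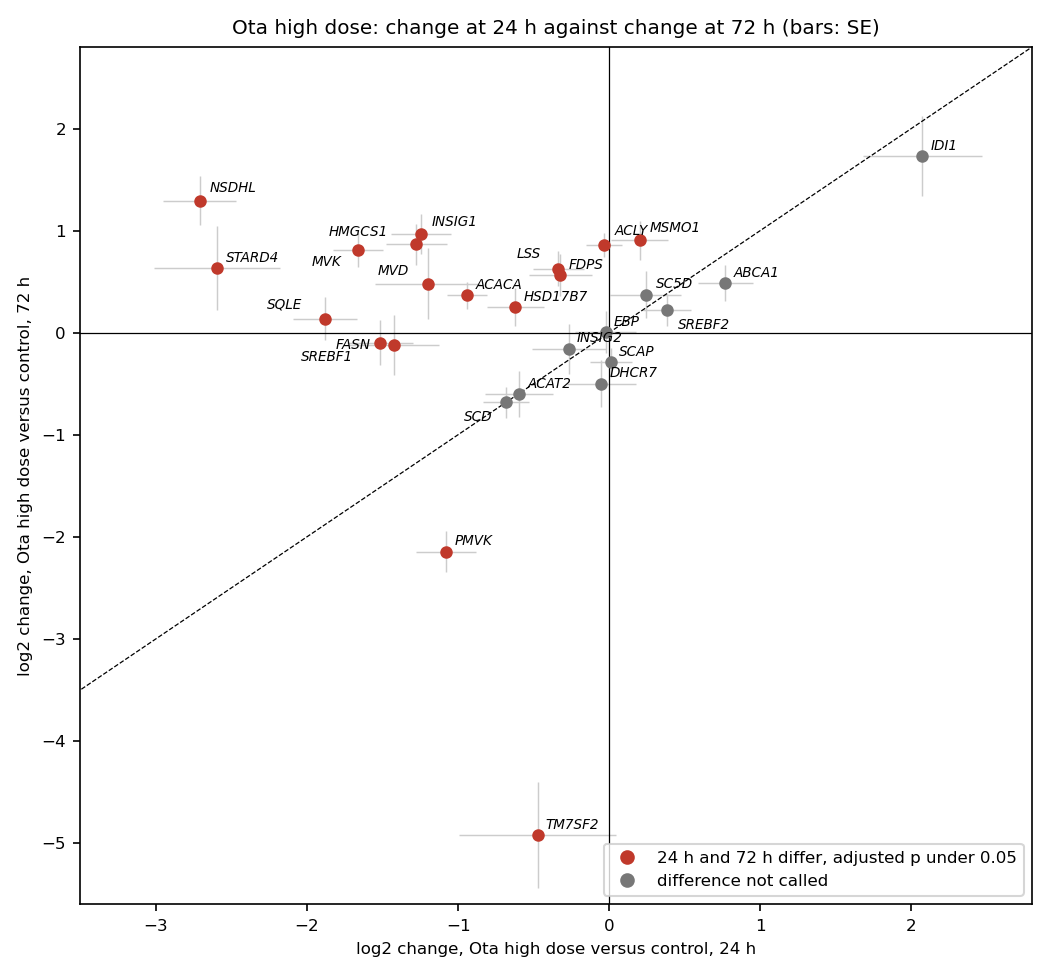
Log2 change of the 27 genes with the Ota high dose at 24 h (x axis) and at 72 h (y axis), each against its own controls, with SE bars; the dashed line marks equal change. Red points are the 17 genes whose change differed between the times by the interaction test. NSDHL, STARD4, MVK, HMGCS1 and INSIG1 lie left of 0 on the x axis and above 0 on the y axis, and TM7SF2 and PMVK lie below the dashed line.

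The interaction test called 17 of 27 genes for the Ota high dose, 15 with a higher effect at 72 h than at 24 h and 2 with a lower, where 33% and 20.8% of all genes were called so. The largest shifts were 4.0 ± 0.34 for NSDHL (adjusted p = 3.4e-07), 3.23 ± 0.59 for STARD4 (adjusted p = 3.0e-04), 2.48 ± 0.23 for MVK (adjusted p = 9.0e-07), 2.21 ± 0.28 for INSIG1 (adjusted p = 1.2e-05) and 2.14 ± 0.28 for HMGCS1 (adjusted p = 1.8e-05). Among the upward shifts, STARD4, MVD, HSD17B7, SQLE, SREBF1 and FASN were not called at 72 h against the 72 h controls. Their changes there were 0.63, 0.48, 0.25, 0.14, -0.1 and -0.12. SQLE and SREBF1 shifted by 2.02 and 1.42. The SREBF1 mean went from 6.81 to 7.16 with the high dose and from 8.32 to 7.26 in the controls. In the opposite direction, TM7SF2 shifted by -4.45 (-3.61 with values under 4 set to 4) and PMVK by -1.06. Of these, 10 of the 15 upward calls and both downward ones were made under all 3 scalings, and the split was 15 and 3 after quantile normalization and 10 and 3 with the common median. For the low dose, 9 genes shifted upward and 0 downward, against 5.31% and 2.02% of all genes, led by FASN (1.89), ACAT2 (1.63) and INSIG1 (1.4), and 4 did with the common median. Lower controls at 72 h enter these shifts. FASN means went from 9.69 to 7.99 in the controls, 9.28 to 9.48 with the low dose and 8.26 to 7.87 with the high dose. ACAT2 went from 11.03 to 10.29 in the controls and from 10.59 to 11.49 with the low dose. For INSIG1 these were 12.18 to 11.54 and 12.152 to 12.915. Leaving out 1 array ended the high dose interaction calls of FDPS (1 of 12 arrays, adjusted p up to 0.0515 without Ota high dose 72 h replicate 3) and MSMO1 (8 of 12 arrays, adjusted p up to 0.107 without Ota control 24 h replicate 3), and the low dose ones of FDPS (4 of 12 arrays, adjusted p up to 0.0594 without Ota low dose 72 h replicate 1), EBP (8 of 12 arrays, adjusted p up to 0.0709 without Ota low dose 72 h replicate 1), SC5D (9 of 12 arrays, adjusted p up to 0.121 without Ota low dose 24 h replicate 2), SREBF1 (11 of 12 arrays, adjusted p up to 0.126 without Ota control 72 h replicate 1) and ACLY (10 of 12 arrays, adjusted p up to 0.0848 without Ota low dose 72 h replicate 1).

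**Figure D4:**
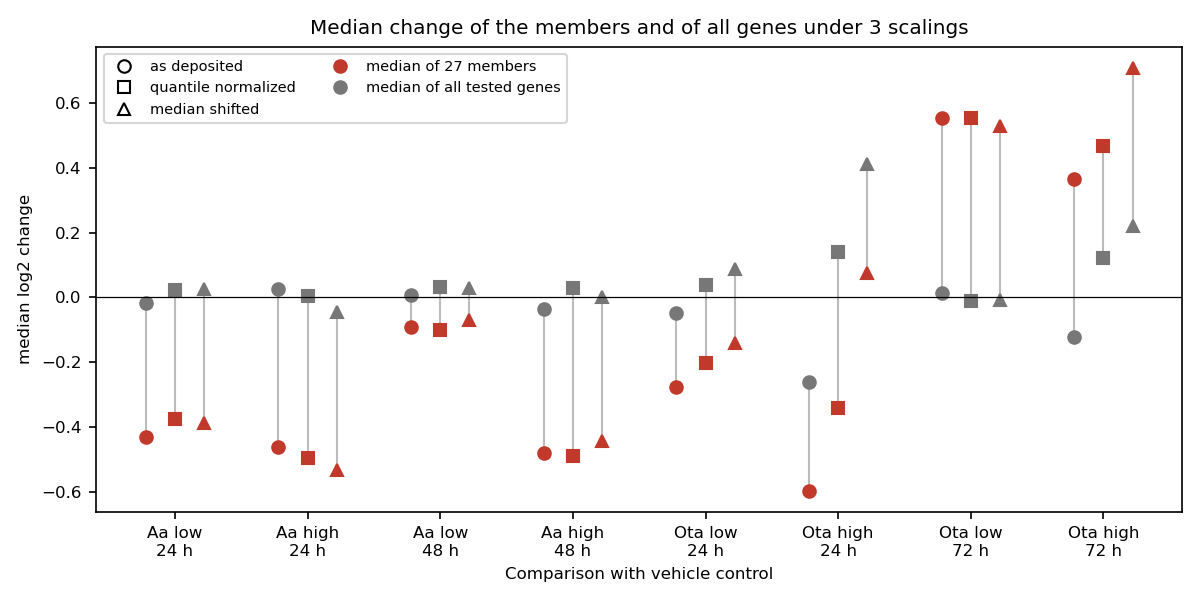
Median log2 change of the 27 genes (red) and of all genes tested (grey) in the 8 comparisons of a dose with its controls, for the values as deposited (circles), after quantile normalization (squares) and after shifting arrays to a common median (triangles). The median of the set lies below that of all genes in every Aa comparison and in both Ota 24 h comparisons and above it in both at 72 h, under each of the 3 scalings.

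Both compounds were measured at 24 h, although their doses are not matched and the arrays of each have their own controls. The high dose effect of Ota differed from that of Aa in 15 of 27 genes, 10 lower with Ota and 5 higher, where 40.7% and 18.7% of 11405 genes were called so. Quantile normalization gave 7 lower and 8 higher, and the common median 2 lower and 16 higher. Under all 3 scalings NSDHL (-2.21) and STARD4 (-1.99) were lower with Ota, and IDI1 (2.21), TM7SF2 (1.59), SC5D (1.07), MSMO1 (0.97) and ABCA1 (0.76) were higher. The IDI1 value is that of its dim probe set, and on its brightest set the difference was -0.59. INSIG1 and HMGCS1 fell with each high dose at 24 h, and their effects differed by 0.08 ± 0.27 and -0.09 ± 0.27, which was not called. With the common median the differences were 0.82 for INSIG1 and 0.66 for HMGCS1. At the low doses no gene was called different, where 1.39% of all genes were higher with Ota and 3.55% lower (4.94% in all). At an unadjusted p under 0.05 in limma, 3 of 27 were, and 1 passed the adjusted threshold with the common median and 2 with the replicate block. Leaving out 1 array ended the calls of MVK (5 of 12 arrays, adjusted p up to 0.107 without Aa control 24 h replicate 2), PMVK (3 of 12 arrays, adjusted p up to 0.0633 without Ota high dose 24 h replicate 3), TM7SF2 (5 of 12 arrays, adjusted p up to 0.0897 without Ota high dose 24 h replicate 2) and SCD (1 of 12 arrays, adjusted p up to 0.0631 without Ota high dose 24 h replicate 3).

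**Figure D5:**
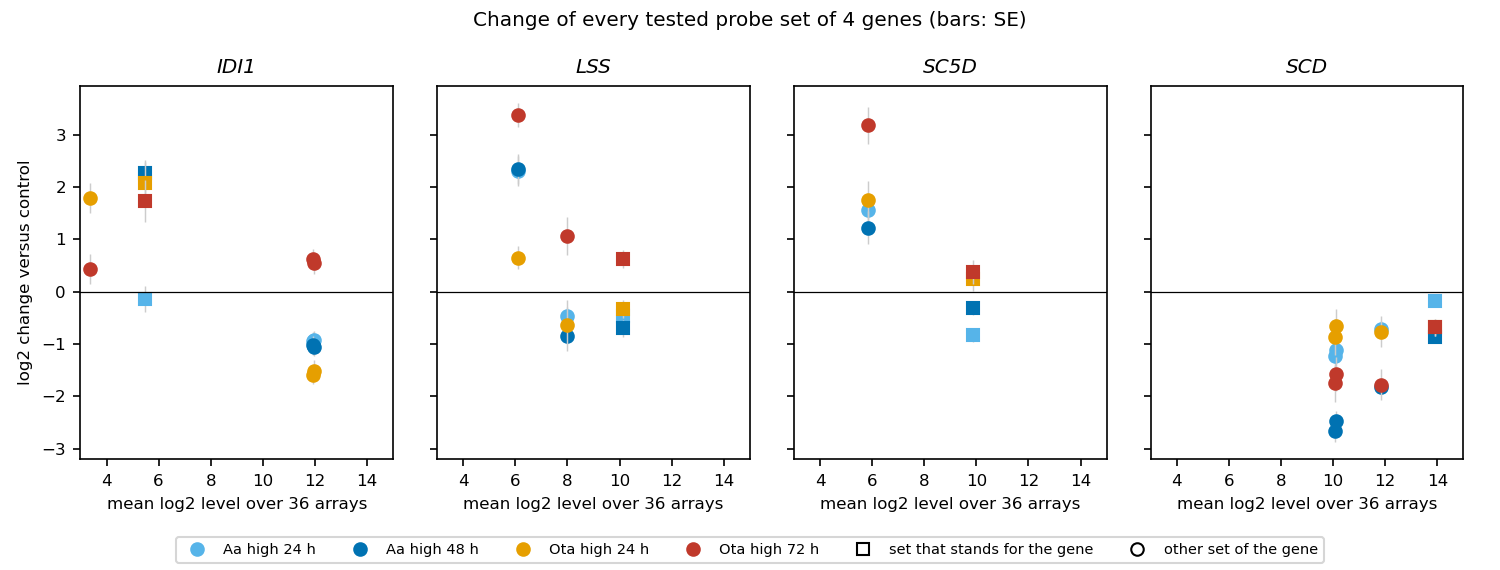
Log2 change against control (y axis, with SE bars) of every tested probe set of IDI1, LSS, SC5D and SCD, by the mean log2 level of the probe set over all 36 arrays (x axis), in the 4 high dose comparisons (colours). Squares are the sets that stand for the gene. The dim sets of LSS and SC5D, at mean levels of 6.12 and 5.84, lie above 0 in all 4 comparisons, the dim IDI1 set at 5.49 lies above 0 in 3 while the bright IDI1 sets lie below 0 in 3, and all 4 SCD sets lie below 0.

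Several genes had more than 1 probe set, and for 3 of them sets were called in opposite directions. Of 103 calls over the 8 comparisons of a dose with its controls, 62 were of genes with another tested probe set, and in 9 that other set was called the other way; all 9 were of LSS, SC5D or IDI1. For IDI1, the set used has a mean level of 5.49, since sets that can bind related sequences were passed over, and the 2 bright sets, at 11.92 and 11.97, gave another picture. The set at 11.97 changed by -0.92 (adjusted p = 5.9e-04) with the Aa high dose at 24 h, -1.06 (adjusted p = 1.1e-04) at 48 h, -1.51 (adjusted p = 8.3e-06) with the Ota high dose at 24 h and 0.55 (adjusted p = 0.0275) at 72 h. On these sets, in the 4 high dose comparisons, IDI1 was lower, then higher, where HMGCS1 and INSIG1 were. With the Aa low dose neither bright set was called.

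For LSS, a dim set at a mean level of 6.12 rose with Aa while the set used, at 10.13, fell. It changed by 2.3 (adjusted p = 1.1e-05) and 2.35 (adjusted p = 4.4e-06) with the Aa high dose and by 3.38 (adjusted p = 6.4e-09) with the Ota high dose at 72 h. The dim SC5D set, at 5.84 against 9.88 for the set used, changed by 1.56 (adjusted p = 8.6e-04) and 1.22 (adjusted p = 0.00361) with the Aa high dose and by 3.18 (adjusted p = 1.3e-06) with the Ota high dose at 72 h. The sets of SCD differed in size, and in some comparisons in which of them were called. The set used has a mean level of 13.91, close to the top of the range, where the highest value of any array was 16.09, and fell by 0.87 with the Aa high dose at 48 h, while the sets at 11.83, 10.12 and 10.09 changed by -1.82 (adjusted p = 5.7e-08), -2.47 (adjusted p = 8.1e-08) and -2.67 (adjusted p = 7.4e-08). On those 3 sets SCD was also lower with the Aa high dose at 24 h, by 0.71 to 1.22. Other sets of INSIG1, SQLE and HMGCS1 fell with the set used in both Aa high dose comparisons and with the Ota high dose at 24 h, apart from a dim SQLE set that was not called with Aa at 48 h. For HMGCS1 the second set rose by 2.04 with the Ota high dose at 72 h, against 0.87 on the set used, and a SQLE set rose by 0.8 there while the set used was not called. With the Ota low dose at 24 h the same 3 SCD sets were called lower, by 1.18 to 1.35, where the set used was not. A second SREBF1 set, at a mean level of 5.63 against 7.64 for the set used, was not called in the high dose comparisons in which that set fell, with 0.08, -0.125 and 0.22 against -0.63, -1.46 and -1.51, and was higher with the Ota low dose at 24 h (0.49 (adjusted p = 0.0116)). A second ABCA1 set was higher with the Aa low dose at 24 h (0.61 (adjusted p = 0.00386)), and not called with the Aa high dose at 48 h (-0.23 (adjusted p = 0.144)), where the set used was lower. A dim SREBF2 set was lower with the Aa high dose at 24 h, -0.87 (adjusted p = 0.00866), where the set used was not called.

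Genes around the pathway were followed through the 4 high dose comparisons, to be read against the shares of all genes called: 27.4% higher and 24% lower with Aa at 24 h, 30.9% and 35.1% at 48 h, 21.6% and 42.4% with Ota at 24 h, and 26.3% and 37% at 72 h. The medians over all genes were 0.03, -0.04, -0.26 and -0.12 in that order. Of 11 tested genes of SREBP processing and sterol-regulated degradation, 0 were called higher and 4 lower with Aa at 24 h, 1 higher and 7 lower with Aa at 48 h, 5 higher and 4 lower with Ota at 24 h and 4 higher and 3 lower with Ota at 72 h (medians -0.15, -0.5, -0.03 and 0.17). NFYA, a subunit of the CCAAT-binding factor NF-Y, went from 8.9 ± 0.33 to 4.77 ± 1.03 with Ota at 24 h (adjusted p = 5.7e-08), while NFYC, another subunit, went from 8.01 ± 0.16 to 9.7 ± 0.22 (adjusted p = 1.8e-07). Of 10 tested genes of fatty acid synthesis and SREBP1 targets, 2 were called higher and 4 lower with Aa at 24 h, 2 higher and 7 lower with Aa at 48 h, 1 higher and 6 lower with Ota at 24 h and 3 higher and 3 lower with Ota at 72 h (medians -0.18, -0.86, -0.93 and -0.16). ELOVL6, which elongates palmitate, went from 9.51 ± 0.4 to 5.7 ± 0.49 with Ota at 24 h and was also lower in the other 3, by 2.44 and 3.23 with Aa at 24 h and 48 h and by 1.49 with Ota at 72 h. ACSS2, which makes acetyl-CoA from acetate, went from 10.89 ± 0.15 to 9.5 ± 0.15 with Aa at 48 h.

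The remaining lists are read against the same shares, 27.4% higher and 24% lower with Aa at 24 h, 30.9% and 35.1% at 48 h, 21.6% and 42.4% with Ota at 24 h and 26.3% and 37% at 72 h. Of 15 tested genes of cholesterol uptake, transport and esterification, 5 were called higher and 3 lower with Aa at 24 h, 4 higher and 2 lower with Aa at 48 h, 3 higher and 5 lower with Ota at 24 h and 5 higher and 4 lower with Ota at 72 h (medians 0.22, 0.02, 0.07 and 0.06). VLDLR, a lipoprotein receptor, went from 9.18 ± 0.26 to 5.68 ± 0.46 with Ota at 72 h (adjusted p = 7.4e-08), and OSBPL2, a lipid transfer protein, from 9.34 ± 0.19 to 7.15 ± 0.22 with Ota at 24 h. Of 11 genes of the mevalonate branches that do not make sterols, 5 were called higher and 2 lower with Aa at 24 h, 3 higher and 5 lower with Aa at 48 h, 4 higher and 5 lower with Ota at 24 h and 3 higher and 3 lower with Ota at 72 h (medians 0.34, -0.39, -0.05 and 0.08). PDSS2, a subunit of the enzyme that makes the ubiquinone side chain, went from 7.48 ± 0.1 to 3.64 ± 0.41 with Aa at 48 h, where the level is at background, and DHDDS, which makes dolichol precursors, from 6.69 ± 0.19 to 4.05 ± 0.87 with Ota at 24 h.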

How the data were processed

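The deposited table holds log2 expression values for 54675 probe sets on 36 Affymetrix U133 Plus 2.0 arrays, which the authors made with GCRMA, per the submitters' processing notes. The GCRMA version is not given in the sources used here, nor is it stated if the 36 arrays were processed jointly. GCRMA pulls dim probe sets to a background level and fits between-array normalization that assumes similar distributions. Array medians ran from 2.88 to 3.13. Probe sets annotated to 1 gene symbol in the platform table (41091) were kept, against 1801 with several symbols, 11721 with none and 62 controls. Each gene was represented by its probe set of highest mean over all arrays, with _x_at sets used for want of another. A gene was tested where it exceeded 4 on at least 3 arrays of a compound. Group means were fitted with limma 3.58.1 (R 4.3.3) on the 18 arrays of a compound, or all 36 for Ota against Aa, with Benjamini-Hochberg adjustment over all genes tested. The fit was tested on simulated data for the Aa high dose at 24 h alone. Those data had independent arrays, so the test cannot show how the fit does where same-numbered arrays deviate together. Replicates are labelled as biological, though whether they came from separate passages or days is not stated. Same-numbered Aa arrays of different groups deviated together in 45 of 45 pairs of arrays (correlations of deviations 0.189 to 0.595). The number was therefore taken to pair them, and a fit with it as a block was added. Values and calls are from the fit without that block unless the block is named. Genes named with each array's value were those of a fixed core (HMGCS1, SQLE, INSIG1, INSIG2, SREBF1, SREBF2, SCD and ABCA1) and the 3 largest called changes each way per high dose comparison. The members and lists were chosen with earlier results of these data known. Alternatives changed the scaling, floor, filter, probe set rule, prior, block, arrays in the fit and each replicate. Others, with _x_at sets allowed and with the 24 h controls at either dose, were chosen after seeing the data. The number of arrays limits the precision.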

Additional observations from a re-analysis of the deposited data

Results flagged for a closer look

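These results passed a limma test of the difference between times or between compounds, and values are log2 differences of the change against control. Those of IDI1 are on its dim probe set. Between 48 h and 24 h of the Aa high dose the change differed by ACACA -0.57, IDI1 2.41, INSIG1 -1.09, INSIG2 -1.18, NSDHL 1.03, SCD -0.7 and SQLE -0.45. Between 72 h and 24 h of the Ota high dose it differed by ACACA 1.31, ACLY 0.89, FASN 1.3, FDPS 0.89, HMGCS1 2.14, HSD17B7 0.87, INSIG1 2.21, LSS 0.97, MSMO1 0.71, MVD 1.68, MVK 2.48, NSDHL 4.0, PMVK -1.06, SQLE 2.02, SREBF1 1.42, STARD4 3.23 and TM7SF2 -4.45. Between the same times of the Ota low dose it differed by ACAT2 1.63, ACLY 0.63, EBP 1.14, FASN 1.89, FDPS 1.22, INSIG1 1.4, LSS 1.16, SC5D 1.18 and SREBF1 1.06. Between the Ota and Aa high doses at 24 h, whose concentrations are not matched, it differed by ABCA1 0.76, ACACA -1.03, FASN -1.47, HSD17B7 -0.93, IDI1 2.21, MSMO1 0.97, MVK -0.87, NSDHL -2.21, PMVK -0.67, SC5D 1.07, SCD -0.51, SQLE -1.0, SREBF1 -0.89, STARD4 -1.99 and TM7SF2 1.59. Groups of 3 arrays are too small for a test of single outlying arrays.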

How the results depend on the processing

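Values in this paragraph are log2 changes that took the opposite sign to the value reported, and, unless a value shows it, the cause was not tested. With the mean of all probe sets of a gene they were LSS 0.46 and SC5D 0.37 for the Aa high dose at 24 h, LSS 0.070 for the Aa low dose at 24 h, LSS 0.27 and SC5D 0.45 for the Aa high dose at 48 h, SC5D 0.186 for the Aa low dose at 48 h, SCD 0.062 for Ota against Aa at high dose, IDI1 0.64 for the Ota high dose between times, IDI1 -0.006 for Ota high against low dose at 24 h. With arrays shifted to a common median they were HMGCS1 0.66, PMVK 0.076 and SCD 0.23 for Ota against Aa at high dose, ACAT2 0.076, HSD17B7 0.052, EBP 0.65, DHCR7 0.62 and ACLY 0.64 for the Ota high dose at 24 h, LSS 0.47 and ACLY 0.35 for Ota high against low dose at 24 h. After quantile normalization they were MVK 0.107 and PMVK 0.23 for Ota against Aa at high dose, PMVK 0.041 for Ota high against low dose at 24 h. With _x_at sets allowed, which changed the IDI1 probe set, they were IDI1 -1.06 for the Aa high dose at 48 h, IDI1 -0.66 for Aa high against low dose at 48 h, IDI1 -0.135 for the Aa high dose between times, IDI1 -0.59 for Ota against Aa at high dose, IDI1 2.06 for the Ota high dose between times, IDI1 0.97 for the Ota low dose between times, IDI1 -1.51 for the Ota high dose at 24 h, IDI1 -1.55 for Ota high against low dose at 24 h, IDI1 -0.47 for Ota high against low dose at 72 h. Against the 24 h controls they were FDPS -0.24, LSS -0.031, EBP -0.87, INSIG2 0.59 and ACACA -0.125 for the Ota high dose at 72 h, EBP -0.101, FASN -0.21 and ACACA -0.004 for the Ota low dose at 72 h.

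Counts of genes called that moved by over 1.5 times were as follows. With the replicate block, Aa high against low dose at 24 h gave 9, the Aa high dose between times 13, the Aa low dose between times 4, the Aa controls 6, and Ota against Aa at low dose 2. The Aa low dose between times gave 1 with a filter at 6, 1 with the mean of probe sets and 1 with the trended prior, and the Aa controls gave 1 after quantile normalization, 2 with no filter and 4 with the trended prior. The Ota low dose at 24 h gave 1 after quantile normalization and 1 with no filter, the Ota low dose between times 4 with a common median, and Ota against Aa at low dose 1 with it. Leaving out 1 array gave 11 to 14 genes for the Aa high and 8 to 11 for the Aa low dose at 24 h, 16 to 20 and 8 to 10 at 48 h, 2 to 4 and 11 to 14 for high against low at 24 h and 48 h, 7 to 9 and 0 to 1 for the high and low dose between times, and 0 to 2 for the controls. For Ota it gave 14 to 17 and 0 to 2 at 24 h, 11 to 17 and 7 to 11 at 72 h, 13 to 15 and 11 to 13 for high against low, 15 to 18 and 4 to 10 between times, 6 to 9 for the controls, and 12 to 16 and 0 to 1 for Ota against Aa at the high and low dose. Same-numbered Ota arrays of different groups had a correlation of deviations over 0.1 in 24 of 45 pairs of arrays (correlations -0.074 to 0.411). Over all groups they were therefore taken to share only a number. The replicate block gave 17 and 3 genes for the high and low Ota dose at 24 h and 15 and 13 at 72 h. With the block, calls were gained by SQLE with the Ota low dose at 72 h (adjusted p = 0.0112) and by SREBF1 with the low dose at 72 h (0.0298). Signal over background limits MVD, TM7SF2 and the dim IDI1 set, which lay near 4 in some groups.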
